A study of Mus musculus with 9 samples.

Results

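The 36 genes described here code for the enzymes, carriers and regulators that bring pyruvate into the mitochondrion, run the TCA cycle and refill it, together with the cytosolic partners of several of these enzymes. They were taken as a fixed list of symbols, from Mpc1 and Mpc2 at the point of pyruvate entry to Acly, which splits exported citrate. All 36 were found among the 32285 gene identifiers of the count tables, and all 36 passed the filter on low counts among the 17173 genes tested.

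RNA was sequenced from primary stromal vascular fraction (SVF) cells, the cells that remain after mature adipocytes are removed from adipose tissue, isolated from the subcutaneous white adipose tissue of wild-type neonatal mice aged 4 to 6 days. Cells treated with MIZ (mizoribine, an inhibitor of inosine monophosphate dehydrogenase and so of guanine nucleotide synthesis) at 25 µM during 6 days of differentiation gave 3 libraries. Cells differentiated for 6 days with vehicle (DMSO), which the labels call differentiated, gave 3 libraries, and undifferentiated cells gave the other 3. The MIZ and vehicle cells shared an induction medium with insulin, dexamethasone and IBMX and then a maintenance medium with insulin, troglitazone, rosiglitazone and T3, so both had received 2 PPARγ agonists. The labels do not tie the libraries to animals; the study calls them biological replicates, and where they are not separate animals the p-values cover only the spread between these libraries.

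Pyruvate made by glycolysis crosses the inner mitochondrial membrane through a carrier formed by MPC1 and MPC2. Inside, the pyruvate dehydrogenase (PDH) complex turns it into acetyl-CoA, which citrate synthase joins to oxaloacetate, while pyruvate carboxylase makes new oxaloacetate directly and so refills the cycle, a reaction called anaplerosis. PDH kinases switch the complex off by phosphorylation and PDH phosphatases switch it on again. In white adipocytes, citrate leaves the mitochondrion, ATP citrate lyase splits it into acetyl-CoA for fatty acid synthesis, and cytosolic malate dehydrogenase and malic enzyme return the remaining carbon to pyruvate and yield NADPH, and these cells are known for abundant pyruvate carboxylase, cytosolic malic enzyme and citrate cleavage.

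Library totals were 33504937 to 43281818 counts with MIZ, 28760721 to 50262228 with vehicle and 42217231 to 55288455 in undifferentiated cells. The 36 genes together took 0.302 to 0.325% of counts with MIZ, 1.37 to 1.39% with vehicle and 0.226 to 0.228% in undifferentiated cells. Levels are given as CPM, counts scaled to a common library size after TMM normalization, in the order of replicates 1, 2 and 3, and differences as log2 fold changes with the standard error and the Benjamini-Hochberg adjusted p of edgeR's quasi-likelihood test over all 17173 genes. Summed levels of 8 adipocyte markers (Adipoq, Plin1, Fabp4, Cidec, Lipe, Pparg, Cebpa and Lep) were 1012, 1127 and 1262 CPM in the MIZ libraries, 14420, 14663 and 15211 CPM in the vehicle libraries and 78.2 to 79.9 CPM in undifferentiated cells, so the label of primary adipocytes that all 9 libraries carry was matched by these markers in the vehicle libraries and hardly in undifferentiated cells, where Adipoq had 0 or 1 count per library. The 6 smooth muscle and myofibroblast markers summed to 6857 to 9016 CPM with MIZ, 81.0 to 114 CPM with vehicle and 739 to 878 CPM in undifferentiated cells, and the 8 preadipocyte markers to 6733 to 8754 CPM with MIZ, 5989.7 to 6822 CPM with vehicle and 20033 to 22341 CPM in undifferentiated cells. Most of that preadipocyte sum was Col1a1, higher with MIZ than with vehicle, and Col3a1, lower with MIZ. Endothelial, epithelial, mesothelial and hepatocyte sums were at most 9.64 CPM in any library. Leukocyte sums were 482 to 666 CPM with MIZ, 326 to 557 CPM with vehicle and 1188 to 1327 CPM in undifferentiated cells, with Adgre1 the only one of the 5 leukocyte markers called between MIZ and vehicle. Glial sums were 24.5 to 37.6 CPM with MIZ, 13.01 to 14.7 CPM with vehicle and 16.6 to 20.8 CPM in undifferentiated cells. Skeletal muscle sums were 45.4 to 70.8 CPM with MIZ, mostly Acta1, 7.95 to 12.6 CPM with vehicle and 7.73 to 9.30 CPM in undifferentiated cells. In bulk RNA of this kind, fewer cells of a type and less RNA per cell cannot be told apart, and the part of these marker differences in the results was not tested.

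**Figure D1:**
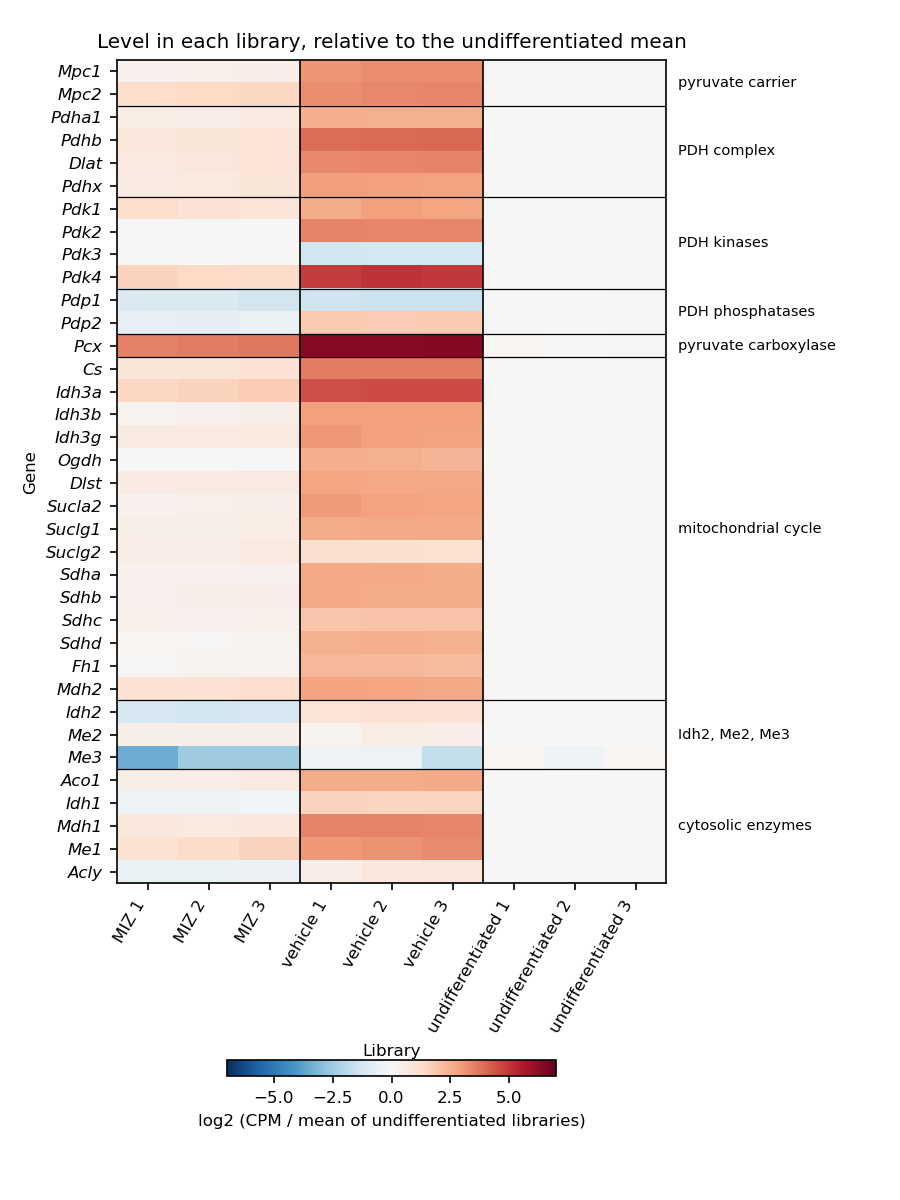
Heat map of the 36 genes (rows, grouped by role) in the 9 libraries (columns: MIZ, vehicle, undifferentiated), coloured by log2 of CPM over the mean of the undifferentiated libraries. The vehicle columns are red for most genes and darkest for Pcx, Pdk4 and Idh3a, Pdk3 and Pdp1 are blue there, and the MIZ columns are pale except for Pcx, with Idh2 and Me3 blue.

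Most of the 36 genes were lower in MIZ-treated cells than in vehicle-treated cells. With MIZ, 33 fell against vehicle, 2 rose (Pdk3 and Pdp1) and 1 (Me2) did not pass the test. Across all genes tested, 35.1% fell and 35.9% rose. The median log2 fold change was -2.19 over the 36 genes and 0.02 over all genes tested. A fall of more than 2-fold was seen for 32 of the 36, where 16.8% of all genes fell that far, and a rise of that size for 1 of the 36, where 16.2% of all genes rose that far. For the 33 that fell and the 2 that rose, every MIZ library lay on the same side of every vehicle library, as it did for 36% of all genes on the lower side and 36.8% on the higher side. In either direction 35 of the 36 were called, against 71% of all genes.

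Differentiation with vehicle had moved the same list the other way. Against undifferentiated cells, 33 genes were higher with vehicle, 2 (Pdk3 and Pdp1) were lower and Me3 did not pass, where 36.2% of all genes rose and 41.5% fell. The median log2 fold change was 2.68 over the 36 genes and -0.08 over all genes. In all 35 of 36 were called, against 77.7% of all genes, and 30 rose more than 2-fold, against 17.2% of all genes, while 2 fell as far, against 24%. Vehicle libraries lay wholly above undifferentiated ones for 33 genes and wholly below for 2, where the shares over all genes were 37.3% and 43.4%. Because the vehicle libraries serve in both comparisons, the opposite signs are a count and not separate evidence.

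Set directly against undifferentiated cells, MIZ-treated cells had 27 of the 36 genes higher, 6 lower and 3 not called, where 33.7% of all genes were higher and 33.3% lower. Here the median was 0.43 over the 36 genes and -0.00 over all genes, and 7 genes were higher by more than 2-fold (9.88% of all genes) and 3 lower by as much (16.5% of all genes). In either direction 33 were called, against 67% of all genes, and the libraries did not overlap for the 27 higher genes (37.1% of all genes) and the 6 lower ones (37.3%). In all, 26 genes were lower with MIZ than with vehicle yet above undifferentiated cells in both. Pdp2, Idh1, Idh2 and Acly fell below undifferentiated cells with MIZ although vehicle had raised them. Pdk2 and Ogdh were called in both comparisons with vehicle but not between MIZ and undifferentiated cells.

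**Figure D2:**
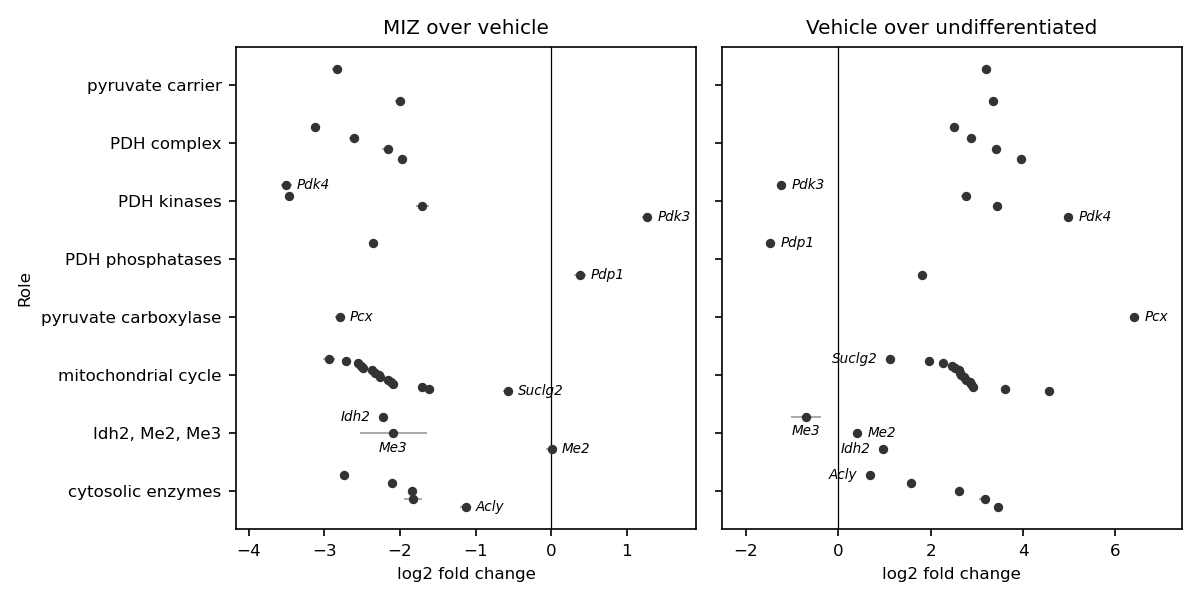
Log2 fold change of each gene (points; bars are the edgeR SE) by role, for MIZ over vehicle (left) and vehicle over undifferentiated cells (right), which share the vehicle libraries. On the left all but Pdk3, Pdp1 and Me2 lie below 0, and on the right Pcx lies farthest above 0 at 6.40.

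The mitochondrial pyruvate carrier fell with MIZ in both of its subunits. Mpc1 had 25.9, 27.4 and 29.4 CPM in the MIZ libraries, 183, 199 and 205 CPM in the vehicle libraries and 19.95, 21.4 and 22.3 CPM in undifferentiated cells. Its MIZ libraries lay just above the undifferentiated ones and far below vehicle, with a log2 fold change of -2.83 ± 0.067 (SE; edgeR adjusted p = 6.07e-11) for MIZ over vehicle. Mpc2, the other subunit, had 54.1, 60.6 and 64.1 CPM in the MIZ libraries, 227, 239.7 and 251 CPM in the vehicle libraries and 24.5, 22.9 and 23.04 CPM in undifferentiated cells, and its log2 fold change was -2.005 ± 0.066 (SE; edgeR adjusted p = 5.04e-10). Against undifferentiated cells Mpc2 was 2.54-fold higher and Mpc1 1.29-fold higher, with edgeR adjusted p = 3.01e-08 and 5.00e-04; the difference between the subunits was not tested. An antisense-strand transcript overlaps 23.1% of the exon bases of Mpc1, and it had 7 to 23 counts per library where Mpc1 had at least 878.

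All 4 PDH complex subunits measured here fell with MIZ, where 35.1% of all genes tested fell. Pdhb, which codes for the β subunit of the E1 enzyme that decarboxylates pyruvate, had 53.98, 56.96 and 60.4 CPM in the MIZ libraries, 474, 498 and 522 CPM in the vehicle libraries and 32.2, 31.3 and 32.8 CPM in undifferentiated cells. The groups did not overlap, and Pdhb fell 8.72-fold with MIZ (log2 -3.12, SE 0.057, edgeR adjusted p = 2.25e-11). Its partner Pdha1, the α subunit that carries the phosphorylation sites, had 161, 157 and 174 CPM in the MIZ libraries, 657, 633 and 639 CPM in the vehicle libraries and 116, 109 and 113 CPM in undifferentiated cells. Pdha1 moved in the same direction as Pdhb in each comparison but over a smaller range, with 5.696-fold higher levels in vehicle than in undifferentiated cells where Pdhb was 15.5-fold higher; the difference between the subunits was not tested. Dlat, the E2 acetyltransferase core, fell by 2.61 on the log2 scale and Pdhx, which anchors the E3 component to that core, fell by 2.16 (edgeR adjusted p = 7.18e-11 and 3.07e-10). All 4 stayed above undifferentiated cells, by log2 fold changes of 0.54 for Pdha1 to 0.83 for Pdhb. Map3k15 overlaps 16.1% of the exon bases of Pdha1 on the opposite strand, and it had 72 to 329 counts per library where Pdha1 had at least 4869.

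The 4 kinases that inactivate the complex did not move together. Pdk4, known as the kinase induced by fasting and by PPAR activation, had 23.5, 20.6 and 19.5 CPM in the MIZ libraries, 228, 255 and 239.6 CPM in the vehicle libraries and 7.999, 7.66 and 7.41 CPM in undifferentiated cells. MIZ libraries lay between the other groups without overlap, 11.3-fold below vehicle (log2 -3.504, SE 0.074, edgeR adjusted p = 3.26e-11) and 2.77-fold above undifferentiated cells. It had the largest fall with MIZ among the 36 genes, with Pdk2 next at -3.46 on the log2 scale. Pdk2, the broadly expressed kinase, had 18.3, 19.2 and 18.98 CPM in the MIZ libraries, 211, 209 and 202 CPM in the vehicle libraries and 19.3, 18.8 and 19.5 CPM in undifferentiated cells. Here the MIZ libraries overlapped those of undifferentiated cells and lay 11.02-fold below vehicle, and the log2 difference between MIZ and undifferentiated cells was -0.03 ± 0.044 (SE; edgeR adjusted p = 0.573). Pdk1, known as a hypoxia-inducible kinase, had 92.2, 79.5 and 73.4 CPM in the MIZ libraries, 242, 289.6 and 269 CPM in the vehicle libraries and 37.9, 40.3 and 40.02 CPM in undifferentiated cells, and it fell 3.26-fold with MIZ (edgeR adjusted p = 1.53e-08).

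Pdk3, a kinase known for a narrow tissue distribution, ran opposite to the other 3 kinases. Pdk3 (chrX:93764607-93832201, GRCm38) had 29.4, 26.3 and 29.4 CPM in the MIZ libraries, 11.1, 12.1 and 12.1 CPM in the vehicle libraries and 27.9, 26.9 and 29.03 CPM in undifferentiated cells. Vehicle libraries were the low ones and the other groups overlapped each other. The log2 fold change was 1.26 ± 0.067 (SE; edgeR adjusted p = 2.08e-08) for MIZ over vehicle, -1.24 ± 0.066 for vehicle over undifferentiated cells and 0.02 ± 0.063 for MIZ over undifferentiated cells (SE; edgeR adjusted p = 1.53e-08 and 0.78). Among 11773 genes that averaged 5 CPM or more in some group, the 5 whose centred log2 CPM over the 9 libraries lay nearest to that of Pdk3 were Calm3, Map4k5, Bahcc1, Col5a1 and Tead3, with sums of squared differences of 0.029 to 0.0507. This nearness describes levels only, and Col5a1 for one averaged 2586 CPM with MIZ, 1098 CPM with vehicle and 2564 CPM in undifferentiated cells.

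The phosphatases split as well. Pdp2, known from rat adipose tissue as an insulin-responsive phosphatase, had 12.1, 11.7 and 13.1 CPM in the MIZ libraries, 64.2, 62.04 and 62.2 CPM in the vehicle libraries and 16.97, 17.9 and 18.5 CPM in undifferentiated cells. MIZ libraries were the lowest of the 3 groups, 5.12-fold below vehicle and 1.45-fold below undifferentiated cells (edgeR adjusted p = 7.96e-11 and 1.18e-05). Pdp1, the calcium-sensitive phosphatase, had 16.8, 17.2 and 14.04 CPM in the MIZ libraries, 12.9, 12.1 and 12.1 CPM in the vehicle libraries and 34.9, 35.2 and 33.1 CPM in undifferentiated cells. It fell 2.79-fold with vehicle differentiation, and MIZ libraries lay above vehicle by only 0.38 ± 0.080 on the log2 scale (SE; edgeR adjusted p = 0.00134) and still 2.14-fold below undifferentiated cells. Both phosphatases were therefore below undifferentiated cells with MIZ, while 2 kinases, Pdk1 and Pdk4, were above.

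**Figure D3:**
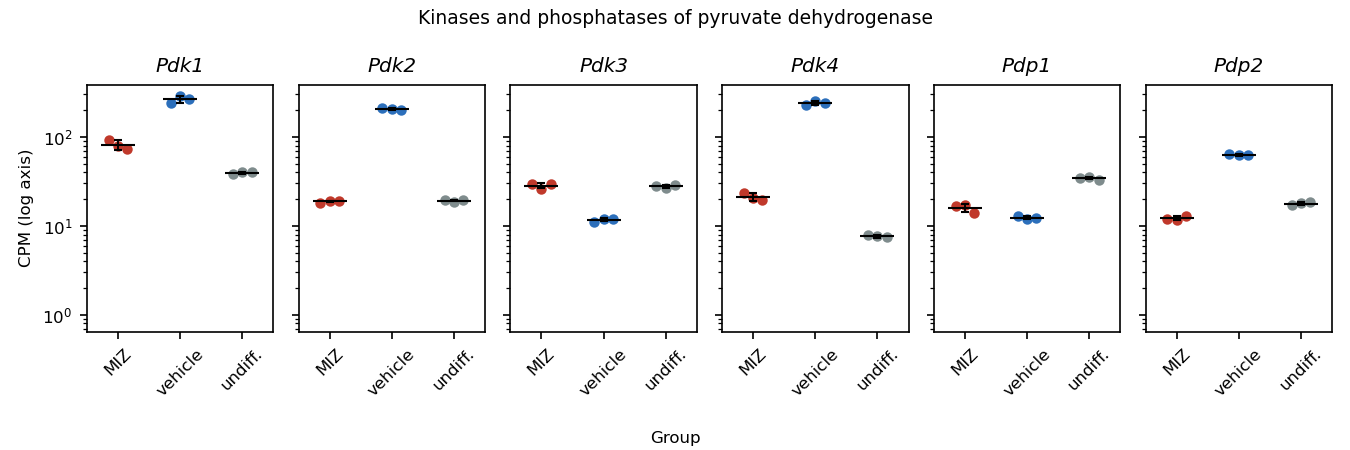
CPM on a log axis of the 4 PDH kinases and 2 PDH phosphatases in each library (points), with the mean and SD of each group (n = 3). Vehicle is the highest group for Pdk1, Pdk2, Pdk4 and Pdp2 and the lowest for Pdk3 and Pdp1, and MIZ overlaps the undifferentiated libraries for Pdk2 and Pdk3.

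Summed counts of the 4 kinases over those of the 2 phosphatases give a within-library ratio that normalization cannot change. Longer transcripts weigh more in these sums, so even the change of this ratio between groups depends in part on transcript length. On the log2 scale the ratio was 2.502, 2.33 and 2.38 in the MIZ libraries, 3.17, 3.37 and 3.28 in the vehicle libraries and 0.84, 0.82 and 0.895 in undifferentiated cells. No group overlapped another, and MIZ lay 0.87 below vehicle and 1.55 above undifferentiated cells (exact permutation test over 9 libraries in 3 groups, p = 0.00357, the smallest it can give, adjusted over 10 ratios p = 0.00446). The Pdk3 over Pdk2 log2 ratio was 0.68, 0.45 and 0.63 in the MIZ libraries, -4.24, -4.11 and -4.06 in the vehicle libraries and 0.53, 0.52 and 0.58 in undifferentiated cells. Its MIZ and undifferentiated libraries overlapped, and vehicle stood apart from MIZ by 4.73 on that scale (3 groups together, exact permutation p = 0.0214, adjusted p = 0.0238). Any single pair of groups, at 3 against 3 libraries, cannot go below an exact permutation p of 0.1.

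Pyruvate carboxylase, the main anaplerotic enzyme, had the largest change of the list with differentiation. Pcx (chr19:4510472-4621752, GRCm38) had 179.6, 188 and 204 CPM in the MIZ libraries, 1321, 1310.4 and 1343 CPM in the vehicle libraries and 16.9, 15.3 and 14.8 CPM in undifferentiated cells. The groups were far apart: vehicle was 84.5-fold above undifferentiated cells (log2 6.401, SE 0.078, edgeR adjusted p = 1.24e-12), and MIZ was 6.95-fold below vehicle and yet 12.2-fold above undifferentiated cells (log2 3.604, SE 0.069, edgeR adjusted p = 7.56e-11). Of the 26 genes that stayed above undifferentiated cells, Pcx was the highest above them with MIZ, keeping 56.3% of the log2 rise seen with vehicle. Per kilobase of its principal transcript it averaged 46.9 ± 3.095 CPM with MIZ, 326 ± 4.06 CPM with vehicle and 3.86 ± 0.272 CPM in undifferentiated cells (SD, n = 3), which placed it at rank 12 of the 36 genes with MIZ, rank 5 with vehicle and rank 33 in undifferentiated cells. The log2 ratio of Pcx to Pdha1 counts, the carboxylation entry of pyruvate over the decarboxylation entry, was 0.16, 0.26 and 0.23 in the MIZ libraries, 1.01, 1.05 and 1.07 in the vehicle libraries and -2.78, -2.83 and -2.93 in undifferentiated cells, again without overlap (exact permutation p = 0.00357, adjusted p = 0.00446).

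Promoter windows of 300 bases, 250 before and 50 after the annotated start, were available from RefSeq (GRCm38.p6) for 32 of the 36 genes. Only the first window listed for a gene was searched, although Pcx and Pdk2 have 2 and Ogdh has 6. Which start these cells use was not tested. Pcx, Pdk4, Pdk2 and Pdk3 are shown because they carry the largest rise, the largest fall, the overlap of MIZ with undifferentiated cells and the opposite direction, and Mdh2 and Sdhd because each holds a less common motif. Capitals mark matches, on either strand, to CACGTG (an E-box), TGACGTCA (the CREB element) or TCAAGGTCA (the estrogen-related receptor element). Lines run 5′ to 3′ in the direction of the gene.
Pcx (chr19:4510222-4510521, plus strand): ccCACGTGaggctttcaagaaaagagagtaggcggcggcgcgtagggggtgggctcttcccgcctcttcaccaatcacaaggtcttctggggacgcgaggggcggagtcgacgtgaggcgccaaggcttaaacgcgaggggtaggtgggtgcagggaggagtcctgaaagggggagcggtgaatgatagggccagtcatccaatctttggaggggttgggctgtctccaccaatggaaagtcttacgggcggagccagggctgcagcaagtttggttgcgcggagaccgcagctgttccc
Pdk4 (chr6:5496229-5496528, minus strand): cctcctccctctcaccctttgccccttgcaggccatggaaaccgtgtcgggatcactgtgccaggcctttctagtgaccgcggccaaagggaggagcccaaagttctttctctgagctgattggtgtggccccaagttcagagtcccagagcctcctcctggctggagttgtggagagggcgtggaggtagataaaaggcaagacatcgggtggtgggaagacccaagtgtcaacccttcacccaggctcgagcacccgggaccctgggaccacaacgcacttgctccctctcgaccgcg
Pdk2 (chr11:95041322-95041621, minus strand): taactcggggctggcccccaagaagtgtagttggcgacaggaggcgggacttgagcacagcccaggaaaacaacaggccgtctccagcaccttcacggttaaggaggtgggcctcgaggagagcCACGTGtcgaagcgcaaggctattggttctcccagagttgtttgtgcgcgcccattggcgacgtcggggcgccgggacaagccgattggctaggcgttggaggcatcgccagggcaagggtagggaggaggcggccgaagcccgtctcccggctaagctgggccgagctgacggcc
Pdk3 (chrX:93832101-93832400, minus strand): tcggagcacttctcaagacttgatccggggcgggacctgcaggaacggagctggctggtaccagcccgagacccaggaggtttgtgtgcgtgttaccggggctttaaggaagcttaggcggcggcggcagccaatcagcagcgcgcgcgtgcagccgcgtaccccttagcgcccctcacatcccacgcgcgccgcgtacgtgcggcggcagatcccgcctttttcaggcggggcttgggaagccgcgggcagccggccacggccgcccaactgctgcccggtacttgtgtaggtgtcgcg
Mdh2 (chr5:135778399-135778698, plus strand): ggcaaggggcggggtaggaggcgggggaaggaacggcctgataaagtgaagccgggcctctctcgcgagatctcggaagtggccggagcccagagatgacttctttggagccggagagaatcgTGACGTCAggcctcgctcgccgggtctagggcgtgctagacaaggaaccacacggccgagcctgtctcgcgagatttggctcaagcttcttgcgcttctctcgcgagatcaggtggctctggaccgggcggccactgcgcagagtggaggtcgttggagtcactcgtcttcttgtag
Sdhd (chr9:50603800-50604099, minus strand): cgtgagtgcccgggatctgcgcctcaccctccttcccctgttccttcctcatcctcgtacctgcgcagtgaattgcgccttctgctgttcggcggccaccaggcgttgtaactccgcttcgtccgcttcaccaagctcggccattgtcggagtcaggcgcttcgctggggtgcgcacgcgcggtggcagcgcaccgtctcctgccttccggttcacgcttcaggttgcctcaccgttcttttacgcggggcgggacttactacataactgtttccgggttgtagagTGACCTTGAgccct
Among the 32 genes, CACGTG was found in Pcx, Pdk2 and Pdp2 (9.38%, against 7.24% of 27025 promoters), TGACGTCA in Mdh2 and Ogdh (6.25%, against 1.88%) and TCAAGGTCA in Sdhd (3.12%, against 0.407%), there on the opposite strand at base 37 of the transcript. The NRF1 core GCATGCGC was found in Sdhb (3.12%, against 2.8%). The shorter AGGTCA, which lies within TCAAGGTCA, was in 6 genes, Acly, Fh1, Idh3g, Sdhb, Sdhd and Sucla2 (18.75%, against 16.04%). These are letter matches in a short window and were not compared with the RNA changes.

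The enzymes of the mitochondrial cycle fell with MIZ in 15 of 15 cases, where 35.1% of all genes tested fell. Their log2 fold changes had a median of -2.28 and a range of -2.93 for Idh3a to -0.58 for Suclg2. Cs, citrate synthase, had 243, 248 and 274 CPM in the MIZ libraries, 1645, 1693 and 1689 CPM in the vehicle libraries and 140.0, 135 and 137 CPM in undifferentiated cells. MIZ libraries sat between the other groups, and Cs fell 6.57-fold against vehicle (log2 -2.72, SE 0.056, edgeR adjusted p = 2.91e-11). Per kilobase of principal transcript, Cs was the most abundant of the 36 genes with vehicle (573 ± 9.02 CPM, SD, n = 3) and Mdh2 the most abundant with MIZ (138 ± 7.37 CPM) and in undifferentiated cells (65.7 ± 1.76 CPM). Idh3a, the catalytic subunit of the NAD-dependent isocitrate dehydrogenase, had 82.7, 90.5 and 105 CPM in the MIZ libraries, 692, 708 and 725 CPM in the vehicle libraries and 29.4, 31.1 and 29.97 CPM in undifferentiated cells. It had the largest fall and the largest rise within the cycle, whereas the regulatory subunits Idh3b and Idh3g fell by 2.56 and 2.28 on the log2 scale, and with MIZ Idh3a was 3.08-fold above undifferentiated cells where Idh3b was 1.25-fold and Idh3g 1.56-fold above. Differences between subunits were not tested.

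Ogdh, the E1 component of the 2-oxoglutarate dehydrogenase complex, had 150.2, 144 and 145 CPM in the MIZ libraries, 855, 829 and 775 CPM in the vehicle libraries and 148, 151 and 145 CPM in undifferentiated cells. Its MIZ libraries overlapped the undifferentiated ones, with a log2 difference of -0.02 ± 0.049 (SE; edgeR adjusted p = 0.764), and fell 5.601-fold below vehicle. Dlst, the E2 core of the same complex, had 136, 140.0 and 145 CPM in the MIZ libraries, 623, 605 and 600.4 CPM in the vehicle libraries and 94.7, 90.4 and 93.4 CPM in undifferentiated cells. Unlike Ogdh, Dlst was still 1.51-fold above undifferentiated cells with MIZ (edgeR adjusted p = 4.51e-07).

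Succinyl-CoA synthetase yields ATP or GTP according to its β subunit, and the β subunits responded by different amounts. Sucla2, the ATP-linked β subunit, had 52.5, 55.3 and 56.8 CPM in the MIZ libraries, 338, 308 and 295 CPM in the vehicle libraries and 43.7, 43.6 and 42.97 CPM in undifferentiated cells. Suclg2, the GTP-linked β subunit, had 43.2, 42.9 and 48.1 CPM in the MIZ libraries, 66.9, 67.5 and 65.5 CPM in the vehicle libraries and 31.9, 31.1 and 29.2 CPM in undifferentiated cells. Sucla2 fell 5.72-fold with MIZ and Suclg2 only 1.49-fold (log2 -0.58, SE 0.056, edgeR adjusted p = 3.50e-06), the smallest fall among the genes that fell. The log2 ratio of Sucla2 to Suclg2 counts was 0.28, 0.37 and 0.24 in the MIZ libraries, 2.34, 2.19 and 2.17 in the vehicle libraries and 0.45, 0.48 and 0.56 in undifferentiated cells. MIZ lay 1.94 below vehicle and 0.20 below undifferentiated cells on that scale, with no overlap between any groups (3 groups together, exact permutation p = 0.00357, adjusted p = 0.00446). Suclg1, the shared α subunit, fell 4.48-fold (edgeR adjusted p = 5.03e-11). A processed pseudogene 98.9% identical to Suclg2 over 1302 bases is annotated but has no counts of its own here. Reads that match both may be missing from the counts of Suclg2 or be included in them. The same limit holds for other members with processed pseudogenes. By the longest match these are Me1 (98.4% over 1716 bases), Pdhb (97.03% over 1079 bases) and Mpc1 (99.4% over 330 bases).

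The succinate dehydrogenase genes, whose protein is both a cycle enzyme and complex II of the respiratory chain, had log2 fold changes for MIZ over vehicle of -2.33 (Sdha, the flavoprotein), -2.26 (Sdhb, the iron-sulfur subunit), -1.62 (Sdhc) and -2.37 (Sdhd), the last 2 being the membrane anchors. Sdhc moved least, with 80.98, 78.9 and 79.8 CPM in the MIZ libraries, 238, 249.8 and 248 CPM in the vehicle libraries and 67.3, 60.5 and 61.3 CPM in undifferentiated cells. Sdhd was the gene nearest to its undifferentiated level among the 26 that stayed above it, with 52.3, 50.6 and 56.2 CPM in the MIZ libraries, 271, 276 and 272 CPM in the vehicle libraries and 47.3, 49.6 and 45.98 CPM in undifferentiated cells. Its log2 difference between MIZ and undifferentiated cells was 0.15 ± 0.049 (SE; edgeR adjusted p = 0.0171), and the call was lost without MIZ replicate 3 (0.11, edgeR adjusted p = 0.0703), without undifferentiated replicate 1 (0.14, edgeR adjusted p = 0.0604) and without undifferentiated replicate 3 (0.12, edgeR adjusted p = 0.0901). Fh1, fumarase, fell 4.27-fold with MIZ and was 1.14-fold above undifferentiated cells (edgeR adjusted p = 0.01).

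**Figure D4:**
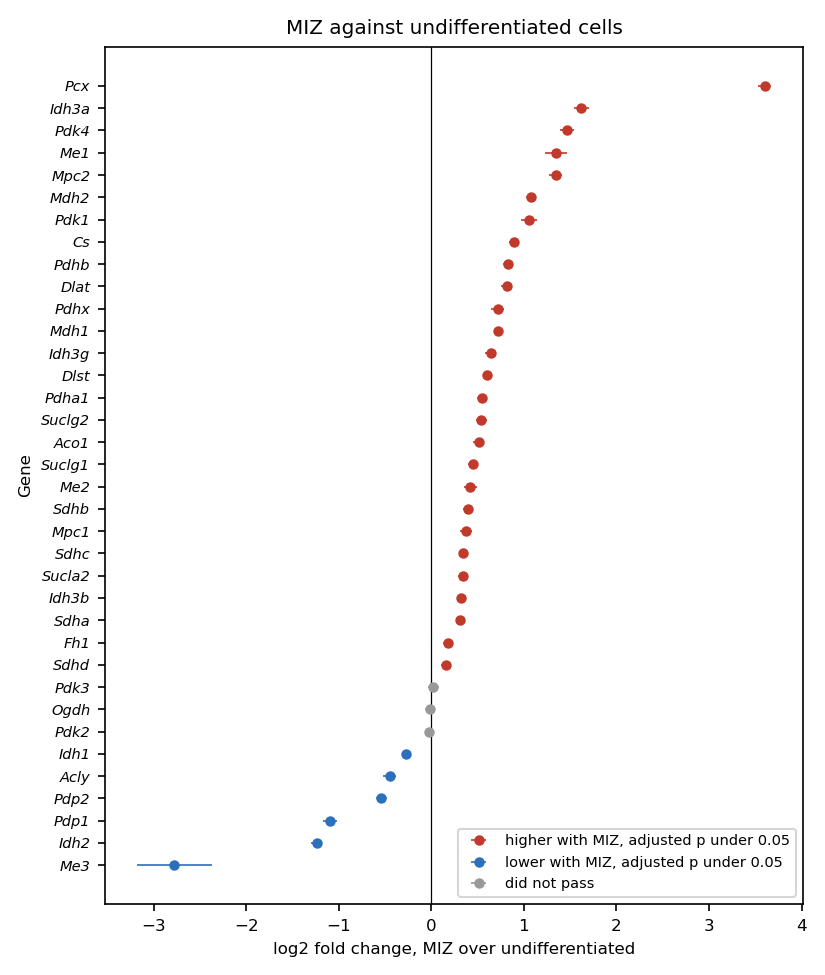
Log2 fold change of MIZ over undifferentiated cells for each of the 36 genes (points; bars are the edgeR SE), sorted, with red for higher, blue for lower and grey for genes that did not pass an adjusted p of 0.05. Pcx stands apart at 3.60, most genes lie between 0 and 1.7, and Me3, Idh2, Pdp1, Pdp2, Acly and Idh1 (blue) lie below 0, as do Pdk2 and Ogdh (grey, -0.03 and -0.02).

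Isoforms of the same reaction in cytosol and mitochondrion were compared as ratios of counts within a library. Since transcript lengths differ, only the change of a ratio between groups is read. For isocitrate dehydrogenase, the mitochondrial NADP enzyme Idh2 (chr7:80094846-80115392, GRCm38) had 27.05, 23.9 and 26.6 CPM in the MIZ libraries, 114, 124 and 123 CPM in the vehicle libraries and 63.7, 58.02 and 61.6 CPM in undifferentiated cells. The MIZ libraries lay below those of both other groups, 4.66-fold below vehicle (log2 -2.22, SE 0.062, edgeR adjusted p = 1.60e-10) and 2.36-fold below undifferentiated cells (log2 -1.24, SE 0.061, edgeR adjusted p = 2.53e-08). Idh1, its cytosolic and peroxisomal counterpart, had 113, 112 and 120.2 CPM in the MIZ libraries, 427, 411 and 404 CPM in the vehicle libraries and 138, 141 and 137 CPM in undifferentiated cells. It too was lowest with MIZ, but only 1.21-fold below undifferentiated cells. The Idh1 over Idh2 log2 ratio was 2.06, 2.23 and 2.17 in the MIZ libraries, 1.9, 1.72 and 1.72 in the vehicle libraries and 1.12, 1.28 and 1.15 in undifferentiated cells, so the cytosolic transcript gained on the mitochondrial one by 0.37 with MIZ over vehicle and by 0.60 with vehicle over undifferentiated cells, without overlap (exact permutation p = 0.00357, adjusted p = 0.00446). Set against the NAD-dependent Idh3a, Idh1 lost ground with differentiation, the log2 ratio being 0.45, 0.31 and 0.19 in the MIZ libraries, -0.696, -0.79 and -0.84 in the vehicle libraries and 2.23, 2.18 and 2.19 in undifferentiated cells (3 groups together, exact permutation p = 0.00357, adjusted p = 0.00446).

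Malate dehydrogenase showed another order of groups. Mdh1, the cytosolic enzyme, had 108, 107 and 108 CPM in the MIZ libraries, 736, 718 and 706 CPM in the vehicle libraries and 65.7, 65.4 and 65.7 CPM in undifferentiated cells, and its coefficient of variation of 0.344% with MIZ was the lowest of the list. Mdh2, the mitochondrial enzyme, had 196, 194 and 214 CPM in the MIZ libraries, 684, 656 and 626 CPM in the vehicle libraries and 98.6, 93.98 and 94.3 CPM in undifferentiated cells. Mdh1 fell 6.68-fold with MIZ and Mdh2 3.25-fold, and both stayed above undifferentiated cells, by 1.64-fold and 2.11-fold. The Mdh1 over Mdh2 log2 ratio was -0.86, -0.86 and -0.99 in the MIZ libraries, 0.104, 0.13 and 0.17 in the vehicle libraries and -0.58, -0.52 and -0.52 in undifferentiated cells. The ratio was highest with vehicle and lowest with MIZ, which lay 1.04 below vehicle and 0.36 below undifferentiated cells (3 groups together, exact permutation p = 0.00357, adjusted p = 0.00446). Wdpcp overlaps 2.03% of the exon bases of Mdh1 on the opposite strand, with 255 to 518 counts per library.

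The malic enzymes, which turn malate into pyruvate, differed among themselves. Me1, the cytosolic NADP enzyme, had 128, 151 and 188 CPM in the MIZ libraries, 509, 538 and 603 CPM in the vehicle libraries and 61.7, 59.7 and 62.1 CPM in undifferentiated cells. It fell 3.54-fold with MIZ (log2 -1.82, SE 0.12, edgeR adjusted p = 1.20e-07), and its MIZ libraries had the widest spread of the list apart from Me3, with a coefficient of variation of 19.5%, where the median over the 36 genes was 6.13% with MIZ, 3.27% with vehicle and 2.64% in undifferentiated cells. Me2, a mitochondrial malic enzyme that prefers NAD, had 32.8, 32.1 and 32.5 CPM in the MIZ libraries, 28.4, 35.2 and 33.1 CPM in the vehicle libraries and 24.95, 24.5 and 23.4 CPM in undifferentiated cells. Its MIZ and vehicle libraries overlapped, and the log2 difference was 0.01 ± 0.072 (SE; edgeR adjusted p = 0.941), which made it the only gene of the list not called between MIZ and vehicle. Against undifferentiated cells Me2 was higher in both, by 0.42 with MIZ and 0.41 with vehicle on the log2 scale (edgeR adjusted p = 3.63e-04 and 2.95e-04). The Me1 over Me2 log2 ratio was 1.96, 2.24 and 2.53 in the MIZ libraries, 4.16, 3.94 and 4.19 in the vehicle libraries and 1.31, 1.29 and 1.41 in undifferentiated cells, and its groups did not overlap (exact permutation p = 0.00357, adjusted p = 0.00446).

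Me3, the NADP-linked mitochondrial malic enzyme, was the least abundant of the 36 genes in every group per kilobase of principal transcript. It had 6, 10 and 9 counts in the MIZ libraries, 34, 54 and 21 in the vehicle libraries and 73, 55 and 97 in undifferentiated cells. MIZ libraries were the lowest, with a log2 fold change of -2.09 ± 0.44 (SE; edgeR adjusted p = 0.00137) against vehicle and -2.78 ± 0.41 (SE; edgeR adjusted p = 1.13e-04) against undifferentiated cells. Between vehicle and undifferentiated cells it did not pass (log2 -0.69, SE 0.32, edgeR adjusted p = 0.0688), but it did without vehicle replicate 1 (-0.89, edgeR adjusted p = 0.0232). Stretches of its exons match other transcripts at 95% identity or more over at least 150 bases, so these few counts are uncertain. The Me1 over Me3 log2 ratio was 9.76, 9.05 and 9.38 in the MIZ libraries, 8.62, 8.85 and 10.3 in the vehicle libraries and 5.21, 5.58 and 5.22 in undifferentiated cells, with MIZ and vehicle overlapping (exact permutation p = 0.0321, adjusted p = 0.0321), and the small difference between MIZ and vehicle changed sign when vehicle replicate 1 was left out (-0.17), vehicle replicate 2 was left out (-0.06) or MIZ replicate 1 was left out (-0.04).

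The cytosolic enzymes all fell with MIZ, 5 of 5, where 35.1% of all genes tested fell, and their median log2 fold change was -1.85. Acly, ATP citrate lyase, had 181, 178 and 186 CPM in the MIZ libraries, 348, 413 and 434 CPM in the vehicle libraries and 251, 247 and 246 CPM in undifferentiated cells. It fell 2.19-fold with MIZ against vehicle (log2 -1.13, SE 0.072, edgeR adjusted p = 9.41e-08) and lay 1.37-fold below undifferentiated cells. The vehicle libraries were only 1.605-fold above undifferentiated cells, a small rise for this list. Per kilobase of principal transcript Acly ranked 15 of the 36 genes with MIZ, 24 with vehicle and 3 in undifferentiated cells. The log2 ratio of Acly to Cs counts, citrate cleavage over citrate synthesis, was -0.43, -0.48 and -0.56 in the MIZ libraries, -2.24, -2.04 and -1.96 in the vehicle libraries and 0.84, 0.87 and 0.84 in undifferentiated cells. MIZ lay 1.59 above vehicle and 1.34 below undifferentiated cells (3 groups together, exact permutation p = 0.00357, adjusted p = 0.00446). Aco1, the cytosolic aconitase that also serves as an iron-responsive RNA-binding protein, had 89.8, 93.6 and 104 CPM in the MIZ libraries, 406, 412 and 421 CPM in the vehicle libraries and 68.8, 66.5 and 66.6 CPM in undifferentiated cells and fell 4.31-fold with MIZ (edgeR adjusted p = 1.17e-10).

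**Figure D5:**
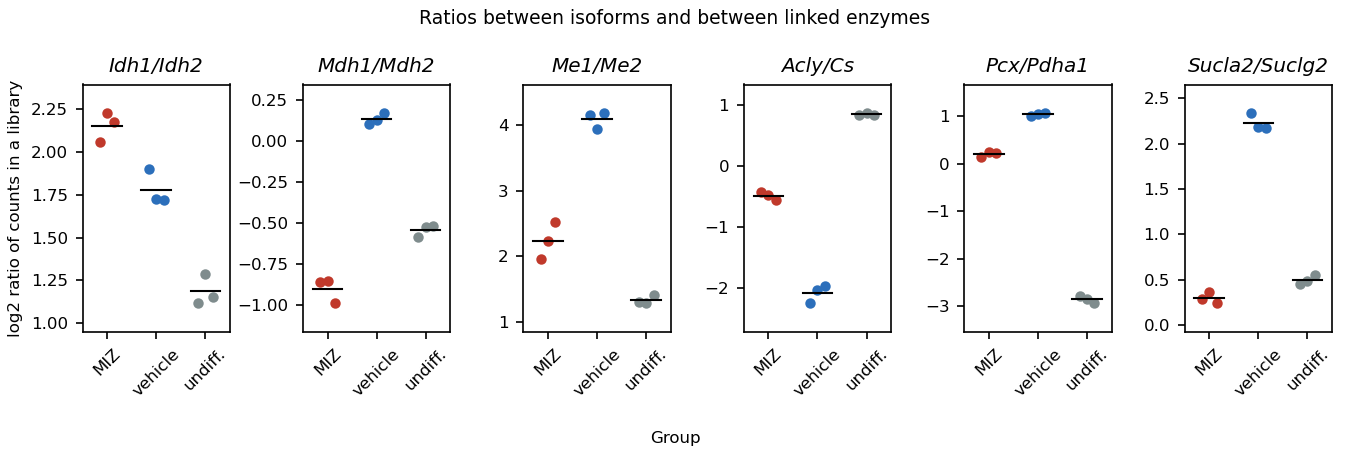
Log2 ratio of raw counts of 2 genes in each library (points; lines are group means), for 6 of the 10 ratios, with a separate vertical scale in each panel. The groups do not overlap in any of the 6 panels, and MIZ is the highest group for Idh1/Idh2, the lowest for Mdh1/Mdh2 and Sucla2/Suclg2 and between the others for Me1/Me2, Acly/Cs and Pcx/Pdha1.

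The share of the vehicle rise that remained with MIZ varied widely over the 26 genes that stayed above undifferentiated cells. On the log2 scale it was 56.3% for Pcx, 48.4% for Suclg2, 42.5% for Me1, 40.1% for Mpc2 and 38.7% for Mdh2 at the upper end. At the lower end it was 6.13% for Sdhd, 8.04% for Fh1 and 11.3% for Idh3b. Both terms of this share use the undifferentiated libraries, so it is given as a description. Among the MIZ libraries, replicate 3 was the highest for 26 of the 36 genes, replicate 1 for 7 and replicate 2 for 3. Replicate 3 also had the highest adipocyte marker sum of the MIZ libraries, 1262 CPM, and the highest smooth muscle and myofibroblast sum, 9016 CPM; the part of either in the genes' levels was not tested. Without it, the median over the 36 genes for MIZ over vehicle was -2.25. Counts from the mitochondrial genome, which are outside this list, were also highest with vehicle, at 3.82 to 5.002% of counts. They were 0.686 to 0.836% with MIZ and 0.837 to 0.891% in undifferentiated cells. Their share with MIZ was thus not above that of undifferentiated cells, unlike the share of the 36 genes. In a fit without the mitochondrially encoded genes, the median over the 36 genes for MIZ over vehicle was -2.21, where the main fit gave -2.19. Beyond that fit, the part of these counts in the results was not tested.

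A list of 32 genes for reactions next to the cycle (aminotransferases, carriers, lipoate synthesis, propionate and acetate use and the like) moved less evenly. With MIZ, 26 of the 32 fell against vehicle, 5 rose and 1 did not pass, where 35.1% of all genes fell and 35.9% rose. The median log2 fold change over the 32 genes was -1.24. The largest falls were in Pck1, the cytosolic PEP carboxykinase that feeds glyceroneogenesis in adipocytes, Acss2 and Acss1, the cytosolic and mitochondrial acetyl-CoA synthetases, and Ldhb, a lactate dehydrogenase subunit. Pck1 had 0.362, 0.624 and 0.828 CPM in the MIZ libraries, 98.1, 101 and 109 CPM in the vehicle libraries and 0.136, 0.135 and 0.119 CPM in undifferentiated cells, a log2 fold change of -7.45 ± 0.14 (SE; edgeR adjusted p = 2.43e-11) for MIZ over vehicle, and its MIZ libraries stayed under 1 CPM although above undifferentiated cells (log2 2.16, edgeR adjusted p = 1.77e-04). The largest rises were in Nnt, the transhydrogenase that makes mitochondrial NADPH (2.22, at levels of 0.45 to 3.24 CPM), Slc25a12 and Slc25a13, the aspartate-glutamate carriers (1.34 and 0.98), and Ogdhl, a paralogue of Ogdh (1.28, where Ogdh had -2.49). Ogdhl had 12.5, 12.5 and 13.8 CPM in the MIZ libraries, 4.24, 5.54 and 6.005 CPM in the vehicle libraries and 17.8, 15.6 and 15.8 CPM in undifferentiated cells, so it ran opposite to Ogdh in both comparisons with vehicle (edgeR adjusted p = 2.01e-06 for MIZ over vehicle).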

How the data were processed

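RNA of 9 libraries of primary mouse SVF cells (3 each with MIZ, with vehicle and undifferentiated) was analysed. By the methods, the authors depleted ribosomal RNA, selected poly(A) RNA, sequenced paired reads, trimmed them with Trim Galore 0.6.7, aligned them with STAR to GRCm38 (mm10) and deposited raw counts per gene, unnormalized, in 1 table per library. The methods name the counting of STAR and the labels HTSeq, and the annotation release and the strand setting are not given in the sources used here. A member that overlaps an opposite-strand gene may therefore have lost reads in the shared stretch or been given some of the other gene's reads.

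Symbols came from GENCODE vM21 for 32158 of 32285 identifiers, and 127 had none. A gene needed 5 counts or more in 3 or more libraries, and 15112 were left out. Counts of all 9 libraries were fitted together with edgeR 4.0.16 (R 4.3.3, TMM, quasi-likelihood test, Benjamini-Hochberg adjustment, threshold 0.05), with a biological coefficient of variation of 0.0806, and limma 3.58.1 was loaded with it. CPM per kilobase used the length of a gene's longest APPRIS principal transcript. Ratios added 0.5 to each count and were tested by exact permutation over the 9 libraries. Near copies of 95% identity over at least 150 bases were sought with blastn 2.17.0. DESeq2 1.42.0, other normalizations and filters, a replicate block, fits of only the 6 libraries compared, fits without mitochondrially encoded genes and leaving out each library in turn served as alternatives. The fit and the ratio test were first tested on simulated data. No 2 libraries of a group were alike within sampling noise, with a chi-square per degree of freedom of 3.88 to 45.2. Library totals were 28760721 to 55288455 counts. The precision rests on the spread between libraries within groups, which the fit pools over the 3 groups and adjusts by that of other genes. The named genes are the 36 members and, of the neighbouring reactions, up to 4 of the largest rises and falls. The members and the lists were chosen with earlier results of these data known.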

Additional observations from a re-analysis of the deposited data

How the results depend on the processing

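Counts of genes and of members called higher or lower stayed within 1.5 times their values under all alternatives run (216 values); counts over 2-fold were not recomputed. Directions of single members were compared only where the main fit or the alternative passed the threshold, and none turned there. Of the values for single members, 1938 kept their side of the threshold. The exceptions were Sdhd between MIZ and undifferentiated cells, lost without MIZ replicate 3 or undifferentiated replicate 1 or 3, and Me3 between vehicle and undifferentiated cells, which passed with upper quartile normalization (-0.77, edgeR adjusted p = 0.0463), with library totals alone (-0.87, edgeR adjusted p = 0.0268) and without vehicle replicate 1 (-0.89, edgeR adjusted p = 0.0232). The Me1/Me3 ratio, MIZ minus vehicle, was 0.14 and turned to -0.025 with 2 added to each count, and it ranged over -0.17 to 0.67 without 1 library. The cause was not tested. Library totals alone, in place of TMM, moved the median log2 fold change of all genes from 0.02 to 0.16 for MIZ over vehicle and from -0.08 to -0.25 for vehicle over undifferentiated cells, and those of the 36 genes to -2.06 and 2.503.

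Same-numbered libraries did not deviate together (correlations of -0.04 to 0.06), so the numbers were not taken as pairs. With a replicate block, 6093 genes were higher and 5927 lower with MIZ than with vehicle, 6163 were higher and 6999 lower with vehicle than in undifferentiated cells, and no call of a member changed. For the ratios, permuting within the block gave exact permutation p = 0.0833 for Me1/Me3 (0.14 for MIZ minus vehicle, 3.92 for vehicle minus undifferentiated and 4.06 for MIZ minus undifferentiated) and for Pdk3/Pdk2 (4.73, -4.68 and 0.05 for the same differences), where 0.0321 and 0.0214 had been found. Me3, with 6 to 97 counts per library, is the member that depth limits.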
